A study of Drosophila melanogaster with 2 samples.

Results

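The nuclear genes of the respiratory chain and of ATP synthase were described by the peaks of the transcription factor Rfx near their starts in Drosophila melanogaster embryos. The genes were taken by symbol, as protein-coding genes of the Ensembl BDGP6 annotation whose names start ND-, Sdh, UQCR-, COX or ATPsyn. This gave 88 of 13968 protein-coding genes on the 7 chromosome arms: 40 of complex I, 8 of complex II, 9 of complex III, 16 of complex IV and 15 of complex V. Of the 88 genes, 63 were subunit genes and 24 were copies with an L in the suffix of the name, such as ND-24L beside ND-24. The last was Sdhaf3, which encodes an assembly factor of complex II.

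Chromatin immunoprecipitation was followed by sequencing (ChIP-seq) in 2 biological replicates of whole embryos aged 0 to 24 h from transgenic flies carrying an Rfx-eGFP fusion, both from the same fly line. Chromatin was sonicated to 200 to 800 bp and the immunoprecipitation used an antibody against GFP, although the antibody field of the labels reads Rfx. There is 1 group and no contrast, so the results are positions and ranks of peaks. A whole embryo mixes all cell types, so that a peak in few cells and a weak peak in many cannot be told apart, and the collection spans all of embryogenesis.

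The respiratory chain sits in the inner mitochondrial membrane. Complexes I and II pass electrons from NADH and succinate to ubiquinone, complex III passes them to cytochrome c, and complex IV passes them to oxygen. Complexes I, III and IV pump protons, and complex V, the ATP synthase, uses the proton gradient to make ATP. Most subunits are encoded in the nucleus, and many of the Drosophila duplicates of such genes are known for expression mainly in the testis. Rfx is a winged-helix factor that binds the X-box, an inverted repeat, and is known in the fly for the ciliary genes of sensory neurons.

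The sequences under the peaks that carried the rarest motifs of the panel are shown first. A strict X-box is an inverted repeat whose arms stand 0 to 3 bases apart. It lay within 100 bp of the summit of 1 of the 35 member peaks, that of COX5B, and of 0.834% of all 4435 summits near a transcription start site (TSS). The site is at the start of the neighbouring gene IFT52, which encodes a component of intraflagellar transport in cilia, and 26 of the 29 bases shown are annotated as exonic. Motif 1, a core promoter element of ubiquitously expressed fly genes, lay near the summits of ND-B17 and ATPsynD and of 3.43% of all TSS-proximal summits. All sequences are from the RefSeq dm6 assembly, 5′ to 3′ on the strand of the named member, with the motif in capitals.

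COX5B, strict X-box, chr2L:6557477-6557505, plus strand: tacatttgGTTGCCCGGCAACgcagtggc
ND-B17, Motif 1, chr2L:15751075-15751103, minus strand: ttaagagtgCGGTCACACTGgcggcaaca
ATPsynD, Motif 1, chr3R:19094884-19094912, plus strand: ggcagctgaTAGTGTGACCGacccgaggg

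The octamer TATCGATA, bound by the replication-related factor DREF, lay within 100 bp of 6 of the 35 member summits, 17.1%, against 9.61% of all TSS-proximal summits. Within 50 bp it was at 3, 8.57% against 5.91%. Of the 23 members with a peak among the stronger peaks, 3 had it within 100 bp, and no share of all stronger summits was computed. The sites within 100 bp in the main set are shown because they fall in 4 of the 5 complexes. The capitals mark the octamer, which reads the same on both strands.

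ND-15, chr2L:114592-114621, plus strand: tgcaatcgataTATCGATAtgtcacaatca
ND-23, chr3R:15837346-15837375, minus strand: gtgcgaatttaTATCGATAgtgccattatc
ND-B14.5A, chrX:2172444-2172473, plus strand: ttcgcgatagtTATCGATAagtatatcaat
SdhC, chr3R:11210150-11210179, minus strand: tactatacacgTATCGATAatttcaatgtt
UQCR-14, chrX:16286215-16286244, plus strand: tgagtgcgataTATCGATAggtgcagtgtg
ATPsynE, chr3R:14327039-14327068, plus strand: accaatacaacTATCGATAgccgcctgtca

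The strongest member peak, at ND-ASHI, held neither the X-box arm nor the DREF octamer. It did hold TATAAA and, on the other strand, the Initiator TCAGTC within 100 bp of the summit, and these are not marked. The non-exonic bases around its summit are shown, with the summit base and 1 base on each side in capitals.

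ND-ASHI, chrX:6679272-6679472, minus strand: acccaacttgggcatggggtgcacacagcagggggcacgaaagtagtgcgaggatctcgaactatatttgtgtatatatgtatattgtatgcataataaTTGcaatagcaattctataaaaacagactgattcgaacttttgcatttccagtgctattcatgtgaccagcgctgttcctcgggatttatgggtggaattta

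Each deposited peak has a summit and a signal, the enrichment value of the authors' peak caller on a scale that is not stated. Signals are therefore set against each other inside 1 list and never across lists. The irreproducible discovery rate (IDR) is low for peaks that rank alike in the compared inputs. The main thresholded set, called from both replicates, holds 9247 peaks on the chromosome arms, the stricter conservative set 6978, and the sets called on replicate 1 and replicate 2 hold 6290 and 6953. The ranked lists of the replicates keep weak peaks and hold 80246 and 86098. Read depth is unknown, so no interval on a signal can be given. The Wilson 95% intervals below cover counting error over genes only, and genes are not replicates. A gene had a TSS peak where a summit lay within 500 bp of any of its annotated TSSs.

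A TSS peak was present at 35 of the 88 genes in the main set, 39.8% (30.2 to 50.2), beside 35.4% of all protein-coding genes, so the whole list lay near the background. Its parts did not look alike. Of the 63 subunit genes 34 had a peak, 54.0% (41.8 to 65.7), and of the 24 L-suffix copies none did. The set on replicate 1 gave 29 subunit genes, 46.0%, against 28.2% of all genes. The set on replicate 2 gave 30 subunit genes, 47.6%, against 29.6%. The conservative set gave 31 subunit genes, 49.2%, against 29.9%. The subunit share was above that of all genes in each of these sets, and the copies were at 0 in each. These shares are descriptions and no test was made on them.

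The rule for a TSS peak carries much of the count, because many subunit genes lie head to head with another gene. When each summit was given only to the gene with the nearest TSS, 22 of the 88 genes kept a peak, 25.0%, beside 27.5% of all protein-coding genes. Of the subunit genes 21 then had one, 33.3%. The 13 genes that lost their peak this way included COX5B, ND-MWFE and ND-51, all among the strongest.

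**Figure D1:**
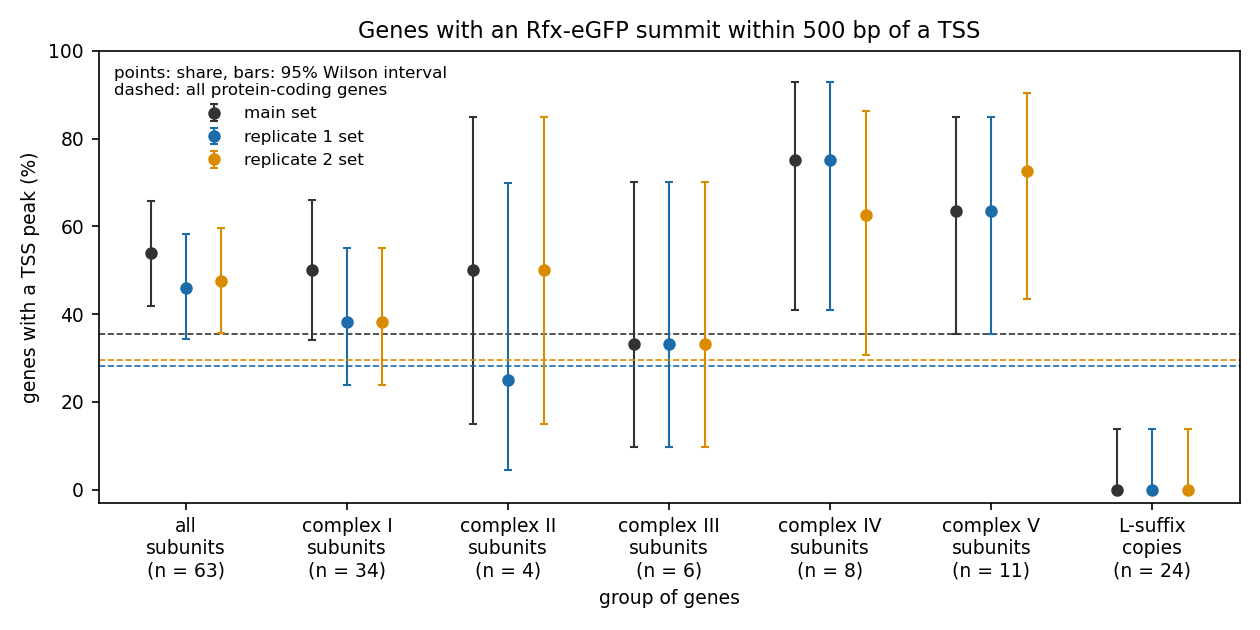
Percentage of genes with a summit within 500 bp of a TSS (y axis) for all subunit genes, the subunit genes of each complex and the L-suffix copies (x axis) in the main set and in the sets on each replicate. Points are shares, bars 95% Wilson intervals, and dashed lines the share of all protein-coding genes in the same set (35.4%, 28.2% and 29.6%); the copies are at 0 in each set.

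Complex I, the NADH dehydrogenase, had a peak at 17 of its 34 subunit genes in the main set (interval 34.1 to 65.9%). The share of all genes, 35.4%, lay inside that interval. Each replicate's set gave 13, 38.2%, beside 28.2% of all genes in replicate 1 and 29.6% in replicate 2. When each summit went only to the nearest TSS, 11 had a peak, 32.4% beside 27.5% of all genes. ND-ASHI, the NDUFB8 subunit of the membrane arm, gave the strongest peak of all members (FBgn0029888, peak at chrX:6679221-6679515, dm6). Its signal was 634 in replicate 1, 435 in replicate 2 and 1066 in the main set, where it stood at the 97.0th percentile of protein-coding genes with a TSS peak. ND-MWFE, the NDUFA1 subunit, gave 481 and 247 in the replicates and 726 in the main set (93.5th percentile). Both genes ranked above the 90th percentile in each replicate's set too.

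ND-24 and ND-51 encode the partners that form the NADH-oxidising end of the complex, ND-51 binding NADH and the flavin and ND-24 an iron-sulfur cluster. ND-24 (FBgn0030853, chrX:17632043-17632314) had signals of 318 and 169 in the replicates and 482 in the main set (86.9th percentile). ND-51 had 256 and 121, and 375 in the main set (80.9th percentile). Other subunits followed at lower levels: in the main set ND-B17 gave 275, ND-SGDH 254, ND-42 251, ND-MNLL 193 and ND-B22 189. The rest ran from 153 at ND-23 through ND-13B, ND-B18, ND-B14.5A, ND-20, ND-B8 and ND-30 down to 73.5 at ND-15, the weakest member peak, at the 6.86th percentile.

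The conserved core of the complex, which carries the redox centres, has 7 nuclear genes here, grouped after their values were seen. A main set peak lay at 5 of them (ND-51, ND-24, ND-23, ND-20 and ND-30) and not at ND-75 or ND-49. The accessory subunits had one at 12 of 27, 44.4%, beside 71.4% for the core and 35.4% of all genes. In replicate 1 the core had 4 of 7, 57.1%, and the accessory genes 9 of 27, 33.3%, beside 28.2% of all genes. In replicate 2 the core had 2 of 7, 28.6%, and the accessory genes 11 of 27, 40.7%, beside 29.6%. The order of both groups thus turned between the replicates.

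The complex I genes without a main set peak included ND-13A, ND-18 and ND-19. ND-13A, the NDUFS6 subunit, had no summit in the ranked list of replicate 1 and a signal of 33.9 in replicate 2. ND-18, the NDUFS4 subunit, had 22.7 and 36.0. ND-19, the NDUFA8 subunit, had none in replicate 1 and 29.7 in replicate 2. ND-49, ND-ACP, ND-B14.7, ND-B16.6 and ND-MLRQ had no ranked summit in either replicate.

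Complex II, succinate dehydrogenase, has 4 subunits. Its membrane anchors SdhC and SdhD had a main set peak, while the catalytic subunits SdhA, which binds the flavin, and SdhB, which carries the iron-sulfur clusters, had none. The peak near SdhC (FBgn0037873, chr3R:11210057-11210400) had signals of 53.7 and 51.3 in the replicates and 97.1 in the main set (21.0th percentile), and its summit was 380 bp upstream of SdhC and 18 bp upstream of the opposite gene Tctp. SdhD had no peak in the set on replicate 1, 49.3 in that on replicate 2 and 93.8 in the main set.

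Sdhaf3, which assists the maturation of SdhB, had 54.6 in the set on replicate 2 and 112 in the main set (29.6th percentile), and none in that on replicate 1. SdhA had a ranked summit in replicate 2 alone, at 3.33, and SdhB had 14.5 and 30.9. All 3 complex II peaks thus lay in the lower part of the range, and in the set on replicate 1 the complex had 1 peak.

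Complex III, the cytochrome bc1 complex, had a peak at 2 of 6 subunit genes in the main set and in each replicate's set. This share of 33.3% stood beside 35.4% of all genes in the main set, 28.2% in replicate 1 and 29.6% in replicate 2. UQCR-14 (FBgn0030733, chrX:16286123-16286466) gave 79.5 and 68.1 in the replicates and 153 in the main set (44.4th percentile). UQCR-C2, one of the large core proteins, gave 56.4 and 64.4, and 118 in the main set (32.6th percentile). UQCR-6.4 had ranked summits of 27.9 and 39.3 below the threshold, UQCR-C1 had 17.9 and UQCR-Q 42.7 in replicate 2 alone, and UQCR-11 had no ranked summit.

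Complex IV, cytochrome c oxidase, had a peak at 6 of the 8 subunit genes that the symbol rule takes in (75.0%, 40.9 to 92.9), 6 in the set on replicate 1 and 5 in that on replicate 2, beside 35.4% of all genes in the main set. With the nearest TSS only the count fell to 2, COX5A and COX8, 25.0% beside 27.5% of all genes, so the high share rests on peaks that lie nearer to a neighbour. COX5B (FBgn0031830, chr2L:6557411-6557648) gave 310 and 260 in the replicates and 569 in the main set (90.1th percentile). COX5A gave 248 and 128, and 377 in the main set (81.1th percentile). COX6B gave 230 and 145, and 373 in the main set (80.8th percentile). These 3 genes ranked above the 70th percentile in each replicate.

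COX8 ranked unlike in the replicates, with 167 (63.4th percentile) in the set on replicate 1 and 49.1 (9.05th percentile) in that on replicate 2, and 213 in the main set. COX7B gave 188 in the main set, 132 in the set on replicate 1 and none in that on replicate 2, and COX7C gave 161. COX4, a subunit that binds regulatory nucleotides in mammals, had one ranked summit, 22.6 in replicate 2. COX7A had 30.5 and 19.7.

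Complex V had a peak at 7 of 11 subunit genes in the main set (63.6%, 35.4 to 84.8), beside 35.4% of all genes. The set on replicate 1 also gave 7, beside 28.2% of all genes, and that on replicate 2 gave 8, 72.7% beside 29.6%. With the nearest TSS only 5 had a peak, 45.5% beside 27.5%. ATPsynE, a membrane subunit known for its part in the dimer of the enzyme in yeast (FBgn0038224, chr3R:14326882-14327113), gave 221 and 140 in the replicates and 350 in the main set (79.3th percentile). ATPsynCF6, coupling factor 6 of the peripheral stalk, gave 191 (69.5th percentile) and 60.0 (23.1th percentile), and 243 in the main set. ATPsynF gave 114 and 86.4, and 192 in the main set. ATPsynB, of the peripheral stalk, gave 66.2 and 76.4, and 139 in the main set. ATPsyngamma, the rotating shaft, gave 116, and the stalk subunits ATPsynD and ATPsynO gave 99.0 and 98.5 in the main set.

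A different case was ATPsynC, which encodes the ring that turns in the membrane. Its TSS peak had an IDR score of 1000 in the ranked lists of both replicates, with signals of 109 and 83.0, and in the pooled ranked list, with 194. The peak, 68 bp upstream of a TSS, was in none of the thresholded sets. A score of 830, an IDR of 0.01, was the lowest in those sets, so ATPsynC passed on score and was still left out, as were 221 of the 9468 peaks on the chromosome arms that passed in the pooled ranked list. The reason is not given in the sources used here, and ATPsynC is counted as without a peak.

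ATPsynbeta, the catalytic subunit, had a signal of 77.4 in the set on replicate 2, no ranked summit at its TSS in replicate 1 and no main set peak. It lies on chromosome 4, as does ND-49, and of the 80 protein-coding genes there 3 had a TSS peak in the main set, 1 in the set on replicate 1 and 9 in that on replicate 2. ATPsynG had 18.3 in the ranked list of replicate 2 alone, and ATPsyndelta had no ranked summit.

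**Figure D2:**
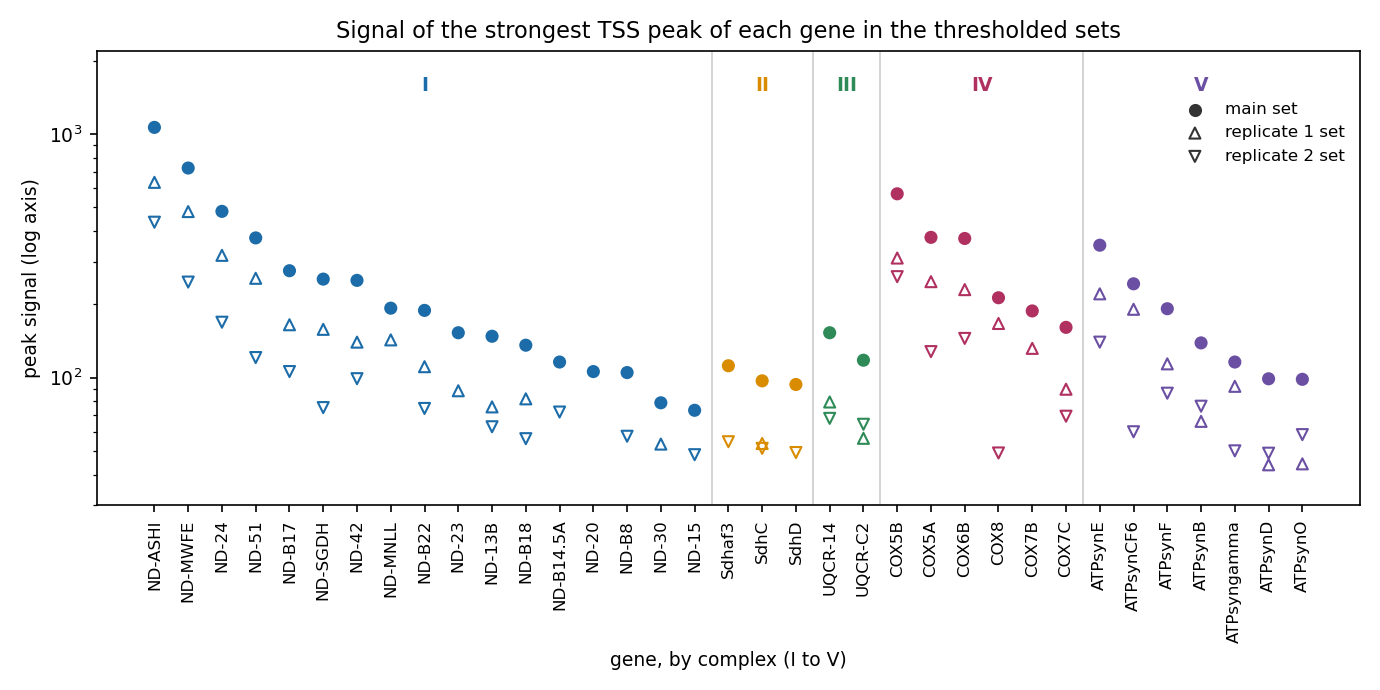
Signal of the strongest TSS peak (y axis, log scale) of each of the 35 genes with a main set peak (x axis, by complex and falling signal). Filled circles are the main set and open triangles the sets on each replicate, absent where that set had no peak; ND-ASHI at 1066 is highest and ND-15 at 73.5 lowest.

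Across the complexes the member peaks were of ordinary strength. The median main set signal was 161 for the 35 genes and 170 for all genes with a TSS peak, and the median member stood at the 47.0th percentile, 52.6 in the set on replicate 1 and 37.4 in that on replicate 2 (45.0 ± 10.7, SD, n = 2). By complex the median percentile in the main set was 55.2 for complex I, 21.0 for II, 38.5 for III, 70.6 for IV and 39.7 for V. Complex IV was highest in both replicates as well, at 69.9 and 70.8, and complex II lowest, at 7.60 from 1 gene and 11.5 from 3.

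Of the 35 genes, 25 had a TSS peak in the main set and in both replicates' sets, 71.4%, where 65.1% of all genes with a main set peak did. COX7B, ND-23, ND-30 and ND-MNLL had one in replicate 1 and not replicate 2. ND-15, ND-B14.5A, ND-B8, SdhD and Sdhaf3 had one in replicate 2 and not replicate 1, and ND-20 in neither. ND-15, ND-20 and ND-30 were also absent from the conservative set. In the 25 shared genes the summits of both replicates lay 0 to 167 bp apart, with a median of 17.0 bp.

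In the ranked lists, which hold weak peaks, 58 members had a TSS summit in replicate 1, 65.9% beside 65.3% of all genes, and 69 in replicate 2, 78.4% beside 73.0%. Subunit genes and copies lay on opposite sides of the share of all genes. Of the 63 subunit genes 45 had one in replicate 1, 71.4% (59.3 to 81.1), and 55 in replicate 2, 87.3% (76.9 to 93.4). Of the 24 L-suffix copies 12 had one in replicate 1 (31.4 to 68.6%). In replicate 2 it was 13, 54.2% (35.1 to 72.1). Both intervals of replicate 1 held the share of all genes, and neither of replicate 2 did. Ranked summits are so common that their presence at a single gene says little, and the signal was compared as well.

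The 24 L-suffix copies had 21 distinct main copies by symbol, 18 of them among the 88 genes. Of these 18, 9 had a main set peak (interval 29.0 to 71.0%), beside 35.4% of all genes, a share inside that interval, and 0 of 24 copies, which allows a share of up to 12.5%. With the nearest TSS only, 5 of the 18 had one, 27.8% beside 27.5% of all genes, and the copies stayed at 0. The main copies outside the symbol rule were levy for COX6AL and COX6AL2, cype for COX6CL and sun for ATPsynepsilonL. levy had a main set signal of 790, cype 214 and sun no peak, so 11 of the 21 main copies had one. Neither levy nor cype kept a peak with the nearest TSS only.

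In the ranked list of replicate 1, 12 of the 24 copies had a TSS summit, beside 65.3% of all genes. Their median signal was 21.9 and the highest 28.9, at UQCR-14L. In replicate 2, 13 copies had one, 54.2% beside 73.0% of all genes, with a median of 13.5 and a highest of 44.4 at COX7AL2. The main copies had medians of 89.7 and 60.0. No ranked summit of a copy reached the IDR score of 830: the highest were 303 at ND-B14.5AL in replicate 1 and 699 at COX7AL2 in replicate 2.

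Pairs with a ranked summit at both genes numbered 9 in replicate 1, and the main copy was higher in all 9. These are not all distinct, since levy stands in the pairs of COX6AL and COX6AL2. With the nearest TSS only, their main copies ND-51, SdhC and levy kept no main set peak. A further 7 pairs had a summit at the main copy alone, 3 at the copy alone (ND-20L, SdhAL and UQCR-11L) and 5 at neither. In replicate 2, 9 pairs had one at the main copy alone, 0 at the copy alone and 2 at neither. In the 13 pairs with both there, the main copy was higher in 11. These pairs again included ND-51, SdhC and levy, and COX7A stands in those of COX7AL and COX7AL2. COX7AL2 was the first exception, at 44.4 against 19.7 for COX7A, although in replicate 1 it was lower, at 24.4 against 30.5. ATPsynepsilonL was the other, at 25.9 against 11.0 for sun, and neither had a ranked summit in replicate 1.

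In complex I, ND-24 had 318 and 169 in the ranked lists, while ND-24L had no summit and 3.94. ND-51 had 256 and 121, while ND-51L1 had none and 3.47 and ND-51L2 had 10.4 and none. ND-20 had no summit in replicate 1 and 47.0 in replicate 2, while ND-20L had 16.6 and 18.9. ND-20L was thus the one complex I copy listed in a replicate where its main copy was not. ND-B14.5A had 32.6 and 72.3, and ND-B14.5AL had 25.1 and 14.3. ND-49 and ND-49L had no ranked summit.

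In complex II, SdhC had 53.7 and 51.3 and SdhCL 22.6 and 13.5. SdhAL had 21.1 in replicate 1, where SdhA had none, and SdhBL had 12.6 in replicate 2, where SdhB had 30.9. In complex III, UQCR-14 had 79.5 and 68.1 and UQCR-14L 28.9 and none. UQCR-6.4L had 9.94 and 14.1, below UQCR-6.4 in both replicates, and UQCR-11L had 4.57 in replicate 1. With a wider window of 1000 bp UQCR-6.4L was the single copy that gained a main set peak.

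In complex IV, levy had 570 and 203, COX6AL 10.5 and 12.6, and COX6AL2 23.5 and none. COX5BL, COX4L and COX6CL had no ranked summit in either replicate. COX7CL had 2.42 in replicate 2 against 69.5 for COX7C, and COX7AL had 8.30 there against 19.7 for COX7A. In complex V, ATPsynCF6L had 27.9 in replicate 1 against 191 for ATPsynCF6, ATPsynbetaL had 14.3 in replicate 2 against 77.4 for ATPsynbeta, and ATPsynGL had none.

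A few copies lie close to their main copy. COX5B and COX5BL are in tandem with TSSs 1631 bp apart, and COX7C and COX7CL with TSSs 1995 bp apart, and in both pairs the main copy had a main set peak and the copy did not. Those peaks lay nearer to another gene, with summits 26 bp from IFT52 and 15 bp from oys, and neither COX5B nor COX7C kept one with the nearest TSS only. COX7A and COX7AL are divergent, with TSSs 2770 bp apart, and neither had a main set peak. The longest exact run shared by the TSS windows of a pair was 9 to 20 bp, with a median of 11.5 bp. How the authors treated reads that map to more than 1 place is not given in the sources used here.

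**Figure D3:**
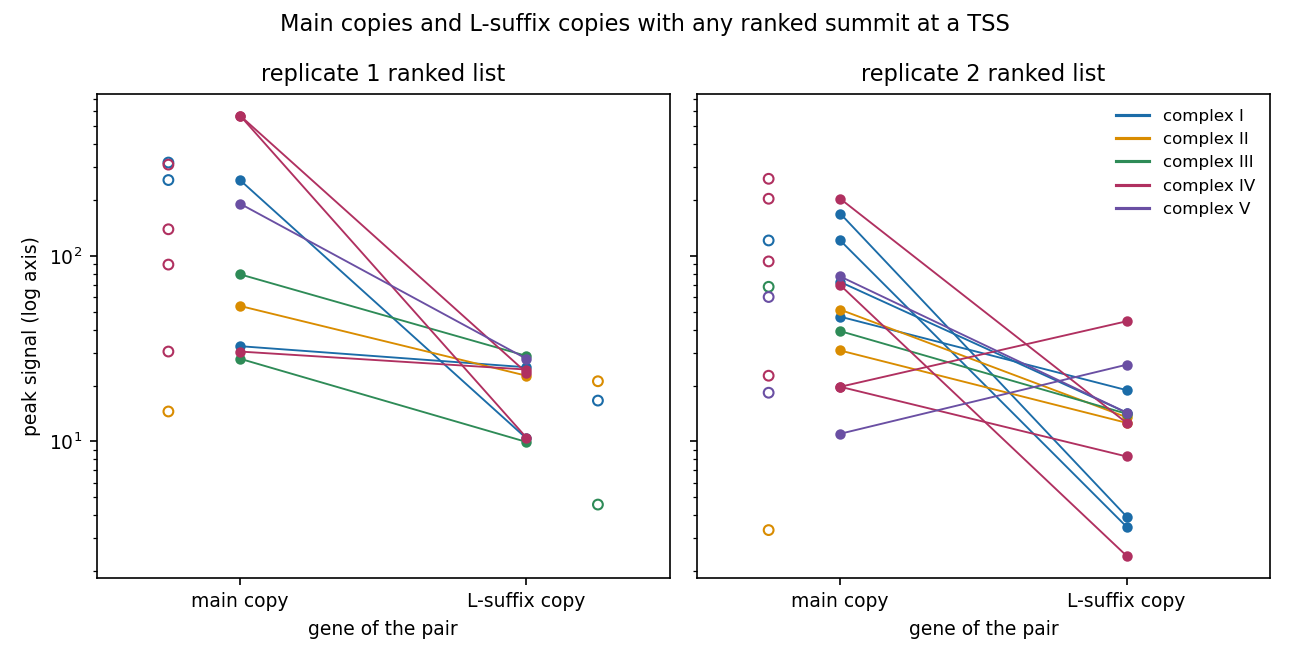
Signal (y axis, log scale) of the strongest ranked TSS summit of the main copy and of its L-suffix copy (x axis), for replicate 1 (left) and replicate 2 (right). Lines join pairs with a summit at both genes, coloured by complex, and hollow points are genes whose partner had none; all 9 lines fall from main copy to copy in replicate 1, and 11 of 13 in replicate 2.

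The promoters of subunit genes and copies held the motifs of the panel at unlike rates, given as descriptions with no test. In the 250 bases before to 50 after the canonical TSS, Motif 1 was present at 14 of the 63 subunit genes, 22.2% (13.7 to 33.9), at 0 of 24 copies and at 4.35% of all promoters. The DREF octamer TATCGATA was present at 8 subunit genes, 12.7%, at 0 copies and at 8.94% of all promoters. The Initiator, TCAGTC or TCAGTT, was present at 15.9% of subunit genes, 33.3% of copies and 35.2% of all promoters. TTANNTAA, the core of an element described at nuclear mitochondrial genes of Drosophila, was present at 33.3%, 20.8% and 23.3%. Both strands were searched.

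Motif 1 did not separate subunit genes with a peak from those without: 6 of the 14 with the motif had a main set peak, 42.9%, and 28 of the 49 without it, 57.1%. Over all protein-coding genes the shares were 54.8% with Motif 1 and 34.5% without. The bases before the TSS of ND-B14.5A, which had a main set peak, and of ND-B14.5AL, which had none, are shown. They are an example of a pair whose main copy holds the DREF octamer, in capitals, and do not stand for the other pairs.

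ND-B14.5A, chrX:2172376-2172525, plus strand: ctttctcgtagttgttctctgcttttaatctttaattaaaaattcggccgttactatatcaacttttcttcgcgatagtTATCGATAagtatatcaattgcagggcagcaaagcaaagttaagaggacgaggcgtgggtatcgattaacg
ND-B14.5AL, chr3L:22606219-22606368, plus strand: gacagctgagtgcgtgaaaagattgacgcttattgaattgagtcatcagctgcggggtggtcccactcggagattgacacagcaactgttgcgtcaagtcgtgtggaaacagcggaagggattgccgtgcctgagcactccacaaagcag

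Surroundings also differed in these counts. Another protein-coding TSS lay within 1000 bp of 69.8% of subunit genes, 29.2% of copies and 42.8% of all genes. With such a neighbour, 25 of 44 subunit genes had a main set peak, 56.8%, beside 52.1% of all genes with a neighbour. Without one, 9 of 19 subunit genes had a peak, 47.4%, beside 22.9% of all such genes. The copies had none in either class, 0 of 7 and 0 of 17. A single annotated TSS, which gives a gene fewer windows, was found at 49.2% of subunit genes, 87.5% of copies and 73.5% of all genes. With the canonical TSS alone, 1 per gene, 33 subunit genes had a main set peak, 52.4% beside 32.3% of all genes, and the copies were again at 0.

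Of the 35 member peaks, 23 also lay within 500 bp of another protein-coding TSS, 65.7% beside 51.2% of all genes with a peak, and all 23 shared it with a gene on the opposite strand. The summit was nearer to the neighbour at 13, nearer to the member at 9 and as near to both at 1. The ND-ASHI peak lay 254 bp upstream of ND-ASHI and 268 bp upstream of Fum1, a fumarase of the citric acid cycle. The COX5B summit was 272 bp upstream of COX5B and 26 bp upstream of IFT52. That of ND-MWFE was 193 bp upstream of it and 28 bp upstream of TppII, which encodes a peptidase.

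Other shared peaks joined ATPsynD to mRpL55, a mitochondrial ribosomal protein gene, at 60 and 35 bp upstream, ND-23 to spn-E, a gene of the piRNA pathway, at 224 and 78 bp, and ND-24 to corolla, a gene of the synaptonemal complex. The COX7C summit was 281 bp downstream of the TSS of COX7C and 15 bp upstream of its neighbour oys. Which gene of a pair a peak belongs to cannot be told from these lists.

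Summits lay upstream of the nearest TSS of the gene at 31 of the 35 genes, 88.6% beside 83.6% of all genes, and within 100 bp of it at 24, 68.6% beside 50.5%. The median position was -57 bp for the members and -85 bp for all genes, and the members ran from -436 bp at ND-30 to 281 bp at COX7C. Measured from the canonical TSS, 27 of the 35 lay upstream, 77.1% beside 77.3% of all genes, and 18 within 100 bp, 51.4% beside 42.4%. The summits then inside the gene included ATPsynE at 65 bp, ND-24 at 78, UQCR-C2 at 112, COX5A at 181 and ATPsyngamma at 241 bp. The ND-15 peak lay at an alternative TSS, far from the canonical one. Of the member peaks 20 were exactly 344 bp wide, as were 70.6% of the main set, and in all 20 the summit was the middle of the peak. These peaks had signals of 73.5 to 193, and the others 148 to 1066.

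**Figure D4:**
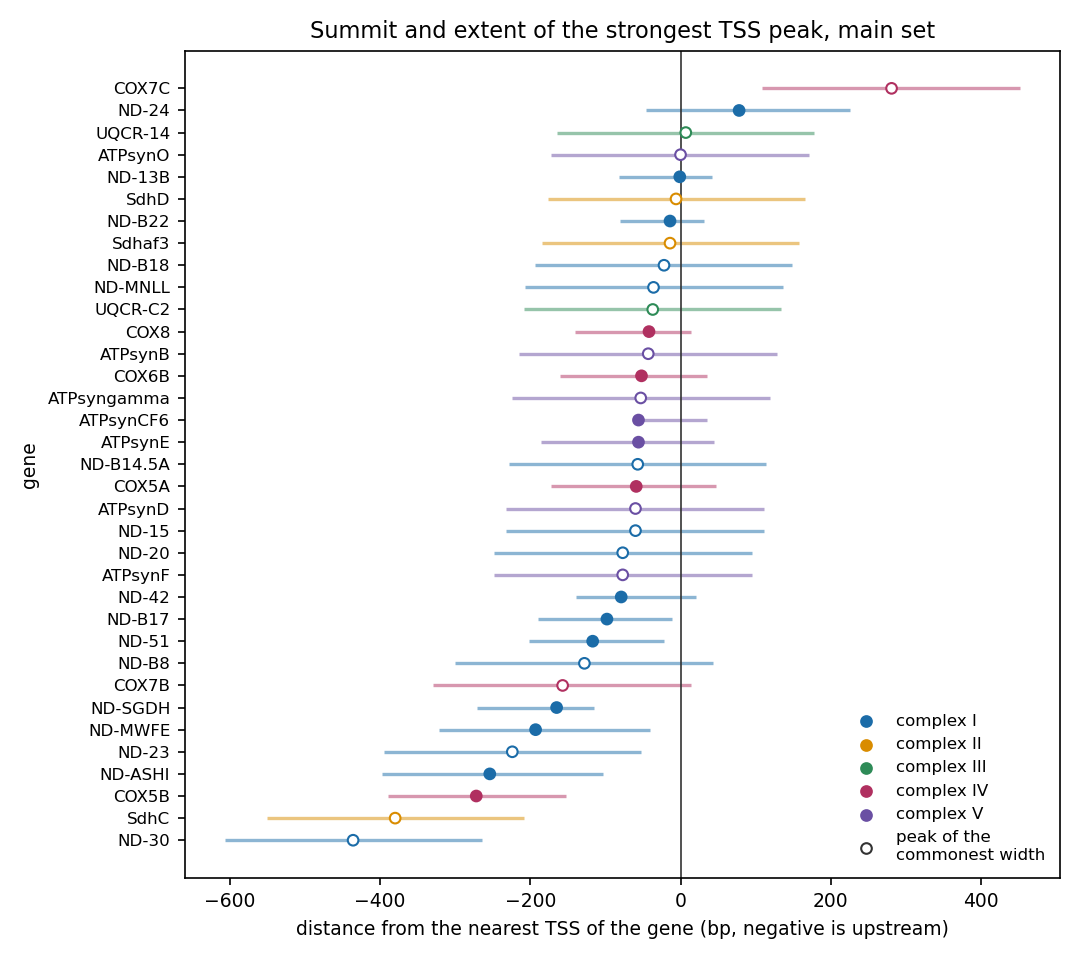
Distance of the summit from the nearest TSS of the gene (x axis, bp, negative is upstream) for the 35 genes with a main set peak (y axis), with lines for the extent of each peak and colours for the complex. Hollow points are peaks 344 bp wide, the commonest width; most summits lie within 100 bp upstream, and ND-30 at -436 bp and COX7C at 281 bp are the extremes.

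At the summits themselves the X-box arm GGCAAC, which also lies inside the strict X-box, was found within 100 bp at 11 of the 35 genes, 31.4% beside 15.6% of all TSS-proximal summits. The genes were ND-13B, ND-B17, ND-B18, ND-B22, Sdhaf3, COX5A, COX5B, COX7C, ATPsynB, ATPsynE and ATPsyngamma. In the fixed promoter windows, the arm was at 20.6% of subunit genes and 17.7% of all promoters, and a main set peak lay at 53.8% of subunit genes with the arm and 54.0% of those without it. TATAAA was found at 37.1% of member summits and 27.8% of all, the Initiator at 17.1% and 20.7%, and TTANNTAA at 25.7% and 15.8%. These counts moved with the window. Within 50 bp TATAAA was at 7 of the 35 member summits, beside 14.3% of all. The Initiator was at 3, 8.57% beside 10.6% of all, and TTANNTAA at 4, 11.4% beside 7.60%. Within 150 bp TTANNTAA was at 16, 45.7% beside 23.2% of all. The X-box arm was at 9 within 50 bp, 25.7% beside 8.93% of all, and at 12 within 150 bp, 34.3% beside 20.6%. Neither CACGTG nor TCAAGGTCA, the site of the nuclear receptor ERR, was near a member summit, and they were near 2.75% and 0.135% of all. A match is a run of letters and not evidence of binding.

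A list of 12 genes outside the symbol rule holds other parts of the same machinery, and 8 of them, 66.7%, had a main set peak, beside 35.4% of all genes. With the nearest TSS only 4 did, Cyt-c-p, Cyt-c1, RFeSP and blw, 33.3% beside 27.5%. The peaks of levy, Cyt-c-d, ox and cype thus lay nearer to a TSS of another gene. With the stronger peaks alone 5 did, 41.7% beside 23.7%. levy, the COX6A subunit, gave 790 in the main set and blw, the alpha subunit of ATP synthase, 725. Cyt-c-d and Cyt-c-p, the cytochrome c genes, gave 581 and 96.2. ox and cype, of complexes III and IV, gave 234 and 214, Cyt-c1 107 and RFeSP, the Rieske protein, 75.8, although RFeSP had no peak in either replicate's set. Cyt-c1L, sun and the assembly factor genes Scox and Surf1 had none.

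Of 6 genes for regulators of mitochondrial genes, 4 had a main set peak, 66.7% beside 35.4% of all genes. With the nearest TSS only 2 did, ERR and srl, 33.3% beside 27.5%. ERR, the nuclear receptor, gave 402 and 148 in the replicates and 555 in the main set (89.3th percentile), and Dref gave 170 and 195, and 363 (80.1th percentile). srl, the fly PGC-1 homologue, gave 114 in the main set and 78.3 in the set on replicate 2, with no ranked summit in replicate 1. mtTFB2, a mitochondrial transcription factor, gave 118. ewg, the fly counterpart of NRF-1, had 69.1 in the set on replicate 2 alone, and TFAM had no thresholded peak.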

How the data were processed

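Peak lists of Rfx-eGFP ChIP-seq in 2 replicates of whole embryos were used. Per the file headers and the labels, peaks were called on dm6 by the authors with a control library, which was not analysed here. Aligner, caller and version numbers: not given in the sources. The deposited signal is the caller's enrichment on an unstated scale, the deposited score is a rescaled IDR with 1000 as its highest value, and the deposited summit offset (another unit, bp) gives the summit. A further 16 deposited columns of values of the compared inputs were not used.

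Summits were assigned to every TSS within 500 bp in Ensembl release 115 (BDGP6.54), on the same build as dm6. Where a gene had several peaks the strongest was used. Percentiles are mid-ranks among protein-coding genes with a TSS peak in the same list. Motifs were searched on both strands within 100 bp of summits and from 250 bases before to 50 after canonical TSSs. Named were the strongest members of each complex, the first members without a peak by alphabet, every L-suffix copy with its main copy, and peaks with a motif found at few summits. The members and lists were chosen with earlier results of these data known, and the pairing of ATPsynepsilonL with sun was added after the annotation was read. There is 1 group, so no test was made; shares have 95% Wilson intervals. The limit beside a count of 0 is 3 counts. The assignment was tested on simulated data. Work was done in Python 3.11.15 with pandas 2.3.3, numpy 2.4.6, matplotlib 3.10.9 and scipy 1.17.1.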

Additional observations from a re-analysis of the deposited data

How the results depend on the processing

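Results were recomputed under the conservative set, each replicate's set, the stronger peaks of the main set, TSS windows of 250 and 1000 bp, the nearest TSS only, canonical transcripts, peak overlap, and motif windows of 50 and 150 bp. Of 110 values of the main results, 96 stayed within 1.5 times the main count (or 1 SD for the median percentile) and 14 moved further. That SD, 10.7, came from the 2 replicates' sets, which are among the settings judged. It is a wide limit, so staying within it says little about the median percentile. For single genes and motifs, 158 of 378 values were labelled moved. Among them were the percentiles of UQCR-C2 (32.6, and 9.77 without replicate 2) and ATPsynO (22.1, and 1.87). A gene without a peak in either or both replicates' sets had no SD, and its percentile was always labelled moved. ND-15 was so labelled at 6.86 and 6.85 with peak overlap, so the count of 158 is not a measure of stability. With the stronger peaks, 23 members had a TSS peak, 26.1% beside 23.7% of all genes. Complex II then had 0, complex III 1 and complex V 4, and 7 other pathway genes and regulators had one. With the nearest TSS only, 22 members had a TSS peak, 25.0% beside 27.5% of all genes (11 in complex I, 2 in complex IV). So did 5 member main copies and 6 other pathway genes and regulators. In that setting 1 peak was shared with another gene, which the setting itself makes rare. With 250 bp, 14 peaks were shared. With 1000 bp, 1 L-suffix copy had a peak. Without 1 replicate, complex II had 1 to 3 peaks, the members 29 to 31 and the copies 0; the low complex II value is that without replicate 2. No paired analysis was possible because there is 1 group. Depth is unknown, so a gene without a peak is one where none was detected at these depths.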
